A study of Mus musculus with 8 samples.

Results

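The genes that take fatty acids and ketone bodies into heart cells and oxidise them were measured in hearts of mice with Elmsan1 deleted in cardiomyocytes. They are 47 genes, found by their symbols among the 45706 gene rows of the table, and they cover fatty acid uptake, activation, the carnitine shuttle, beta-oxidation, electron transfer, lipid droplets and ketone use. Elmsan1, or Mideas, encodes part of the histone deacetylase complex MiDAC. RNA was sequenced from whole hearts of 8 male mice aged 8 weeks. The Elmsan1 cKO group (n = 4) had the genotype Elmsan1 fl/fl;aMHC-Cre+/-, that is, floxed Elmsan1 alleles and a Cre transgene under the cardiomyocyte promoter αMHC. The floxed group (n = 2) had the genotype Elmsan1 fl/fl with no Cre, and the Cre group (n = 2) had aMHC-Cre+/- with no floxed allele. No group had neither, so each comparison is with mice that carried 1 of the 2 alterations. In a whole heart the endothelial cells, fibroblasts and other cells are not targeted by this Cre, and fewer cells of a type cannot be told apart from less RNA per cell.

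The adult heart draws most of its energy from long-chain fatty acids. Lipoprotein lipase (Lpl) frees them from circulating triglycerides, Cd36 helps them across the membrane, and acyl-CoA synthetases such as Acsl1 join them to coenzyme A. The carnitine shuttle carries the acyl groups into mitochondria, and malonyl-CoA holds back its first enzyme. Each cycle of beta-oxidation then runs through an acyl-CoA dehydrogenase, a hydratase, a hydroxyacyl-CoA dehydrogenase and a thiolase. The electrons taken by the acyl-CoA dehydrogenases pass through electron transfer flavoprotein, a pair of the subunits Etfa and Etfb, to Etfdh and on to ubiquinone. Ketone bodies made in the liver are burned in the heart through Bdh1, Oxct1 and Acat1.

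A library held between 17509564 and 24580953 estimated counts in cKO hearts and between 21713560 and 25833259 in controls. Each heart is 1 mouse as the labels describe it. The targeted gene checked the labels: Elmsan1 (ENSMUSG00000042507) averaged 14.5 ± 1.68 CPM in cKO hearts and 26.8 ± 1.62 CPM in controls (log2 fold change -0.89, SE 0.109, adjusted p = 8.94e-05). CPM are counts scaled to library size with TMM factors, given as mean ± SD over the 4 hearts of the cKO group and the 4 control hearts. Values in every heart are listed from replicate 1 upwards. A log2 fold change sets cKO against the average of both control groups, floxed and Cre. "Called" means an adjusted p under 0.05 in the quasi-likelihood test of edgeR, with Benjamini-Hochberg adjustment over all 15289 genes tested. Summed cardiomyocyte markers were 73290.0 to 83711 CPM in cKO hearts and 84445 to 91958 CPM in control hearts, with 6 of 15 called higher and 6 lower. Endothelial markers summed to 1889.5 to 2671 CPM in cKO hearts and 1209 to 1534 CPM in control hearts (7 of 10 called higher, 1 lower). Macrophage markers summed to 345 to 445 CPM in cKO hearts and 222 to 281 CPM in control hearts (6 of 9 called higher). Fibroblast markers summed to 1202 to 1771 CPM in cKO hearts and 917 to 1306 CPM in control hearts (3 of 10 called higher). None of 8 smooth muscle and pericyte markers and none of 5 red cell markers was called. Skeletal muscle markers summed to 345 to 1851 CPM in cKO hearts and 141 to 487 CPM in control hearts (3 of 5 tested called higher). The hepatocyte markers summed to at most 0.876 CPM in any heart. The part of these cell types in the values of the oxidation genes was not tested.

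In cKO hearts much of the pathway was lower, and the largest falls were in mitochondrial genes of beta-oxidation, electron transfer and ketone use and in Acsl1. All 47 genes were tested, 24 were called lower (51.1%, against 26.5% of all tested genes) and 5 were called higher (10.6%, against 25.6% of all tested genes), and 18 were not called. The median log2 fold change was -0.34 over the 47 genes and 0.04 over all tested genes. In 23 of the 47 genes every cKO heart lay below every control heart (25.9% of all tested genes did so), in 5 every cKO heart lay above (23.4% of all tested genes), and in 19 the groups overlapped. The 10 genes that fell at least 2-fold were Acadm, Etfdh, Acsl1, Oxct1, Etfa, Hadhb, Hadha, Acad11, Acad9 and Acat1. The 5 that rose were Angptl4, Acad10, Etfb, Acaa1a and Acot13, which belong to 5 different steps. Taken by their counts, the 47 genes made up 1.45% to 1.9% of a cKO library and 1.97% to 2.23% of a control library. Medians by step were lowest for electron transfer (-1.11 over 3 genes), ketone use (-1.01 over 3), the hydration to thiolysis steps (-0.87 over 5) and the acyl-CoA dehydrogenases (-0.71 over 7). They were nearest 0 for uptake (0.09 over 5), lipid droplets (0.05 over 3) and malonyl-CoA control (-0.10 over 3).

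**Figure D1:**
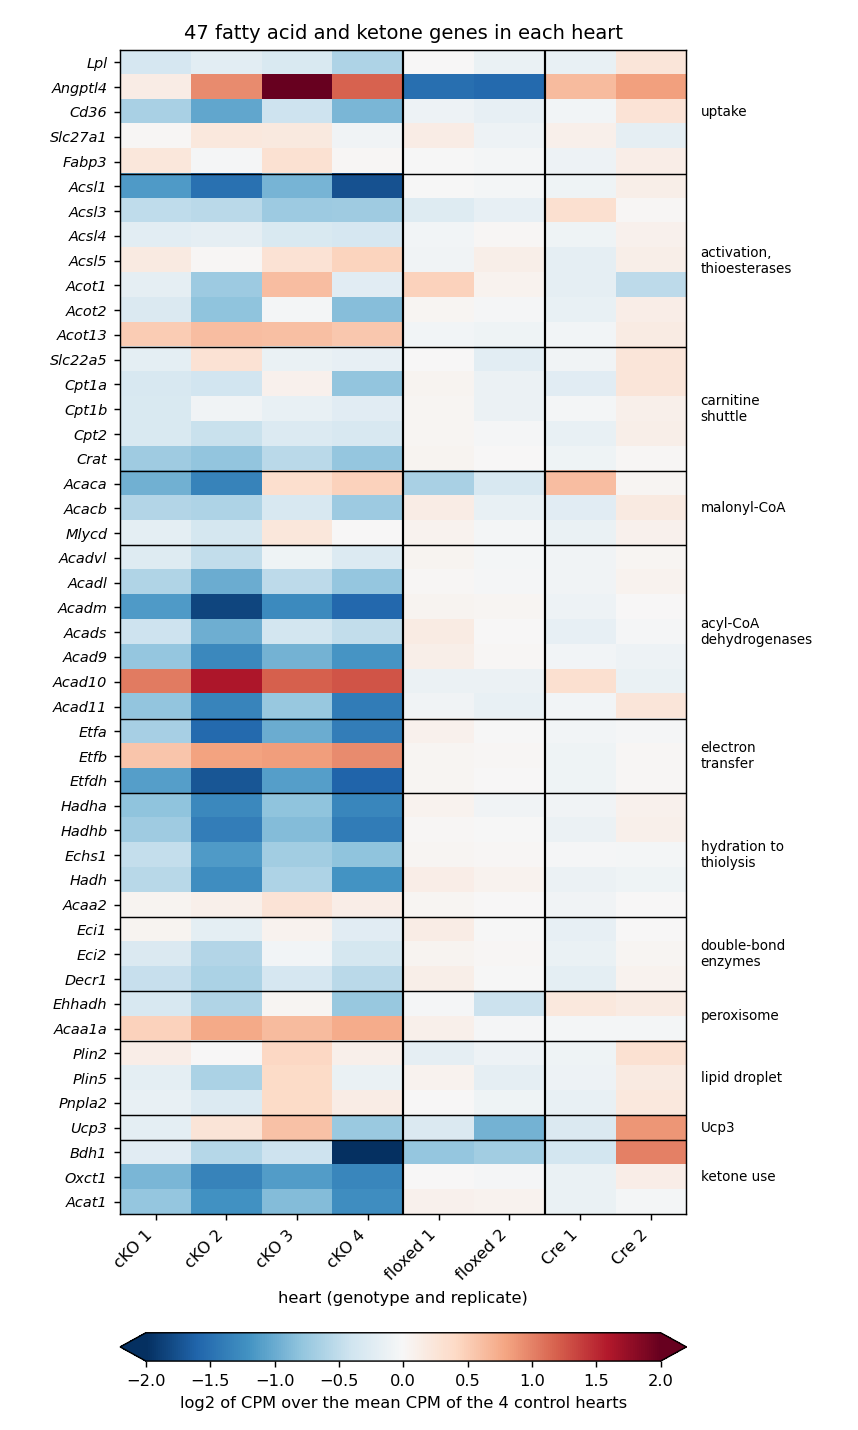
Each row is 1 of the 47 genes, grouped by step, and each column is 1 heart, with the 4 cKO hearts left of the 2 floxed and 2 Cre hearts. Colour gives the log2 of the CPM over the mean CPM of the 4 control hearts, so blue is below the control mean and red above it. The deepest blue rows are Acadm, Etfdh, Acsl1, Etfa, Hadhb and Oxct1, and Angptl4 is the row in which the floxed and Cre hearts differ most.

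Start regions are shown for 5 genes on which the results turn, Acadm as the largest fall, Hadhb because it shares its start region with Hadha, and the 3 electron transfer genes because they part in direction. Each sequence is the 250 bases before the start of the gene in RefSeq (GRCm38.p6), written 5′ to 3′ on the strand of the gene. Capitals mark the letters AGGTCA (the core of a nuclear receptor site), CCAAT (the CCAAT box) and GGGCGG (the GC box) on either strand. The regions are chr3:153944644-153944893 on the minus strand for Acadm, chr5:30155003-30155252 on the plus strand for Hadhb, chr9:55512244-55512493 on the minus strand for Etfa, chr3:79628768-79629017 on the minus strand for Etfdh and chr7:43443822-43444071 on the plus strand for Etfb.
Acadm: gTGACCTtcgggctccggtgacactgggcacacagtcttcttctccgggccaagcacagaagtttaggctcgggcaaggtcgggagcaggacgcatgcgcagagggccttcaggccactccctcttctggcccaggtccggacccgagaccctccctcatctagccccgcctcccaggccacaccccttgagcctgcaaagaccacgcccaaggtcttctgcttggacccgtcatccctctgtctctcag
Hadhb: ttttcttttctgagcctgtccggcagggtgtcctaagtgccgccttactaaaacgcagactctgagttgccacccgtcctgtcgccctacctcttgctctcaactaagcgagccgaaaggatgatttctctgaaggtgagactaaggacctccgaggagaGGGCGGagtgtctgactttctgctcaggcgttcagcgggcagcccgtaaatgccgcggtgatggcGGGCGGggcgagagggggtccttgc
Etfa: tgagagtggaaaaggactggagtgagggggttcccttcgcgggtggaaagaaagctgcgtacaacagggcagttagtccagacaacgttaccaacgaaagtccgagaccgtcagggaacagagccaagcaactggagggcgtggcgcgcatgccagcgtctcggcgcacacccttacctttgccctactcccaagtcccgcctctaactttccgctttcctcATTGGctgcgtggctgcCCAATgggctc
Etfdh: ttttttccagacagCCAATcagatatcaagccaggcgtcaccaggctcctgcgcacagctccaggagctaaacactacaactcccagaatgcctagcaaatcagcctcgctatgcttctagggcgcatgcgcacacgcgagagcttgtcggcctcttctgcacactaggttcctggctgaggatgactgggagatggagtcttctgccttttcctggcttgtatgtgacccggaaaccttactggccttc
Etfb: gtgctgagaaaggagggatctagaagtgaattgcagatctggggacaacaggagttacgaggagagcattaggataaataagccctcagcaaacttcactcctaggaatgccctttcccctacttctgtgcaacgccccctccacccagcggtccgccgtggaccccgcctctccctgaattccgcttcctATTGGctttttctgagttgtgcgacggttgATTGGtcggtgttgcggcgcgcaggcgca

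The Acadm region holds 1 AGGTCA core and neither box, and the Hadhb region holds 2 GC boxes and nothing else of the 3. The Etfa and Etfb regions hold 2 CCAAT boxes each, although Etfa was lower and Etfb higher in cKO hearts, and the Etfdh region holds 1. The RefSeq starts of Hadha (minus strand) and Hadhb (plus strand) lie 272 bases apart on chromosome 5, and 228 of the bases printed for Hadhb also lie in the 250 bases before the start of Hadha. The GENCODE M21 annotation places some starts elsewhere, with 85 bases between those of Hadha and Hadhb. It starts Etfdh at 79629500 on the minus strand, so the region printed for Etfdh lies within that gene. RefSeq gave a start for 38 of the 47 genes, and 8 motifs were searched on both strands from 250 bases before to 50 bases after it. AGGTCA occurred in 9 of the 38 (23.7%), in 18.1% of all 27025 genes with a start and in 15.1% of the 11206 of those that were tested. CCAAT occurred in 20 (52.6%, against 41.1% of all and 42.1% of tested genes) and GGGCGG in 26 (68.4%, against 38.2% and 66.5%). The longer PPAR motif (AGGNCA repeated with 1 base between) and ERR motif (TNAAGGTCA), which overlap the AGGTCA core, occurred in 0 of the 38. They occurred in 0.277% and 0.919% of tested genes. GCGCA and GCGC with 1 base between (the NRF1 site) occurred in 4, CACGTG (the E box) in 2 and TATAAA (the TATA box) in 1. A match of letters is a description and not a bound site, and windows of this length leave out introns and distant enhancers.

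Among the 5 uptake genes, Cd36 and Lpl were called lower, Angptl4 was called higher, and Fabp3 and Slc27a1 were not called. Cd36, the fatty acid translocase of the plasma membrane, had 689, 525, 808 and 572 CPM in cKO hearts, 1007 and 960.0 CPM in floxed hearts and 1044 and 1310.1 CPM in Cre hearts. Its cKO and control values did not overlap, and Cd36 was 1.66-fold lower (log2 fold change -0.73, SE 0.141, adjusted p = 0.00139). Lpl had 3561, 3842, 3619 and 2924 CPM in cKO hearts, 4495 and 4079 CPM in floxed hearts and 4014 and 5294 CPM in Cre hearts, a fall of 1.28-fold (log2 fold change -0.36, SE 0.125, adjusted p = 0.0327). The call of Lpl was lost when cKO heart 3 or 4, floxed heart 1 or 2 or Cre heart 2 was left out (over all 8 such fits, log2 -0.45 to -0.27, adjusted p 0.0194 to 0.126). Angptl4, a secreted inhibitor of lipoprotein lipase, had 4.31, 7.46, 17.6 and 8.80 CPM in cKO hearts, 1.37 and 1.33 CPM in floxed hearts and 5.999 and 6.81 CPM in Cre hearts. It was 3.26-fold higher (log2 fold change 1.71, SE 0.418, adjusted p = 0.0102), yet the 2 control groups stood apart: every cKO heart lay above both floxed hearts, while cKO heart 1 lay below both Cre hearts. Against the floxed hearts alone the Angptl4 change was log2 2.83, SE 0.59, adjusted p = 0.00658, and against the Cre hearts alone log2 0.58, SE 0.482, adjusted p = 0.363. The Angptl4 call was lost with the controls pooled into 1 group (log2 1.32, adjusted p = 0.136) and with no filter on low counts (log2 1.69, adjusted p = 0.0536). Fabp3, the cytosolic fatty acid carrier of muscle, had 2805, 2376, 2966 and 2439 CPM in cKO hearts, 2381 and 2342 CPM in floxed hearts and 2252 and 2638 CPM in Cre hearts (log2 fold change 0.14, SE 0.109, adjusted p = 0.305), and its groups overlapped. Slc27a1, a fatty acid transport protein, averaged 145 ± 13.98 CPM in cKO hearts and 136 ± 14.4 CPM in controls and was not called in any of 22 alternative settings.

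Activation of fatty acids centred on Acsl1, the main long-chain acyl-CoA synthetase of heart and the most abundant of the 4 synthetase genes measured per kilobase of transcript. Acsl1 had 344, 266, 393 and 224 CPM in cKO hearts, 753 and 732 CPM in floxed hearts and 709 and 818 CPM in Cre hearts. Every cKO heart lay below every control heart, and Acsl1 was 2.45-fold lower (log2 fold change -1.29, SE 0.163, adjusted p = 0.000122). The other long-chain synthetases were expressed at low levels: Acsl3 averaged 3.27 ± 0.260 CPM in cKO hearts and 5.01 ± 0.919 CPM in controls (log2 -0.61, adjusted p = 0.00665; not called with a combined length and GC offset, log2 -0.29, adjusted p = 0.128) and Acsl4 11.5 ± 0.558 CPM in cKO hearts and 13.7 ± 0.735 CPM in controls (log2 -0.26, adjusted p = 0.0491). Acsl4 lay at the threshold and lost its call in 19 of 22 alternative settings, among them the removal of any heart except cKO heart 1 (over all 8 such fits, log2 -0.30 to -0.23, adjusted p 0.0433 to 0.124). Acsl5 averaged 19.1 ± 2.32 CPM in cKO hearts and 16.1 ± 1.59 CPM in controls and was not called (log2 0.25, adjusted p = 0.102), but was called higher without cKO heart 2 (log2 0.32, adjusted p = 0.0464). Acyl-CoA thioesterases run the reverse reaction and release free fatty acid. Acot13, a mitochondrial thioesterase, had 227, 243, 242 and 232 CPM in cKO hearts, 153 and 150.2 CPM in floxed hearts and 154 and 179 CPM in Cre hearts. Acot13 was 1.49-fold higher with no overlap (log2 fold change 0.57, SE 0.0853, adjusted p = 0.00027). Acot2, the mitochondrial long-chain thioesterase, had 49.97, 34.9, 59 and 33.7 CPM in cKO hearts, 62.7 and 59.6 CPM in floxed hearts and 54.7 and 66.4 CPM in Cre hearts, and cKO heart 3 lay within the control range (log2 fold change -0.46, SE 0.178, adjusted p = 0.0564). Without cKO heart 3 Acot2 was called lower (log2 -0.62, adjusted p = 0.00764). Acot1, its cytosolic relative, had 8.57, 5.83, 14.9 and 8.30 CPM in cKO hearts, 13.3 and 10.1 CPM in floxed hearts and 8.54 and 6.71 CPM in Cre hearts, with full overlap of the groups (log2 fold change -0.01, SE 0.264, adjusted p = 0.985). Acot1 and Acot2 share 94.3% identity over 1330 aligned transcript bases, so reads may be split between them and both values are uncertain. They lie 130805 and 155303 bases from the deleted gene Elmsan1 on chromosome 12 (GRCm38).

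In the carnitine shuttle, Cpt2 and Crat were called lower and Cpt1a, Cpt1b and Slc22a5 were not called. Cpt1b, the muscle form of the outer membrane carnitine palmitoyltransferase and the step that malonyl-CoA inhibits, had 416, 487, 462 and 437 CPM in cKO hearts, 527 and 476 CPM in floxed hearts and 502 and 548 CPM in Cre hearts. cKO heart 2 lay above floxed heart 2, and Cpt1b was not called (log2 fold change -0.19, SE 0.0919, adjusted p = 0.108). Cpt1a, the form best known from liver, had 37.1, 35.6, 49.02 and 26.8 CPM in cKO hearts, 48.1 and 42.5 CPM in floxed hearts and 39.3 and 54.9 CPM in Cre hearts and was not called either (log2 fold change -0.32, SE 0.178, adjusted p = 0.166), although without cKO heart 3, the highest of the cKO hearts, it was called lower (log2 -0.47, adjusted p = 0.0278). Cpt2, which turns acylcarnitine back to acyl-CoA inside the mitochondrion, had 141, 128, 145 and 139 CPM in cKO hearts, 179 and 172 CPM in floxed hearts and 158 and 189.5 CPM in Cre hearts. That was a fall of 1.26-fold with no overlap (log2 fold change -0.34, SE 0.0905, adjusted p = 0.00933). Crat, carnitine acetyltransferase, had 276, 261, 312 and 265 CPM in cKO hearts, 469.8 and 453 CPM in floxed hearts and 426 and 461 CPM in Cre hearts. Crat was 1.62-fold lower (log2 fold change -0.70, SE 0.0917, adjusted p = 0.000125), the largest fall of the shuttle. Slc22a5, the carnitine importer of the plasma membrane, averaged 22.1 ± 3.71 CPM in cKO hearts and 22.6 ± 3.01 CPM in controls and was not called in any setting tried. In the control of malonyl-CoA, Acacb, the acetyl-CoA carboxylase at the outer mitochondrial membrane, had 229, 225, 278 and 209 CPM in cKO hearts, 384 and 311 CPM in floxed hearts and 296 and 390.5 CPM in Cre hearts and was 1.47-fold lower (log2 fold change -0.55, SE 0.127, adjusted p = 0.00383). Mlycd, which removes malonyl-CoA, averaged 80.9 ± 14.2 CPM in cKO hearts and 84.5 ± 5.94 CPM in controls and was not called (log2 -0.06, adjusted p = 0.698), but was called lower with the length and GC offset (log2 -0.52, adjusted p = 0.00684). Acaca, the cytosolic carboxylase of fatty acid synthesis, ranged from 10.9 to 37.8 CPM in cKO hearts and from 17.5 to 42.2 CPM in control hearts, and its groups overlapped (log2 -0.10, adjusted p = 0.866).

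Of the 7 acyl-CoA dehydrogenase genes 6 were called lower and 1, Acad10, higher. Acadm, the medium-chain enzyme, showed the largest fall of all 47 genes. It had 473, 289, 427 and 346 CPM in cKO hearts, 1074 and 1056 CPM in floxed hearts and 961 and 1034 CPM in Cre hearts, so the highest cKO heart held less than any control heart by a wide margin, and Acadm was 2.69-fold lower (log2 fold change -1.43, SE 0.145, adjusted p = 3.56e-05). Acadl, the long-chain enzyme, had 549, 417, 579.8 and 485 CPM in cKO hearts, 846 and 814 CPM in floxed hearts and 795 and 871 CPM in Cre hearts. Acadl was 1.64-fold lower (log2 fold change -0.71, SE 0.114, adjusted p = 0.000421). Acadvl, the very-long-chain enzyme bound to the inner membrane, had 709, 607, 803 and 703 CPM in cKO hearts, 889 and 831 CPM in floxed hearts and 809.7 and 877 CPM in Cre hearts. Its fall was small (1.21-fold; log2 fold change -0.27, SE 0.104, adjusted p = 0.0469) and the call was lost without any 1 of cKO hearts 2 and 4, the floxed hearts and the Cre hearts (over all 8 such fits, log2 -0.33 to -0.20, adjusted p 0.029 to 0.142). Acads, the short-chain enzyme, averaged 110.1 ± 19.4 CPM in cKO hearts and 161 ± 15.3 CPM in controls (log2 -0.54, adjusted p = 0.00469). Acad9, which also assembles respiratory complex I, averaged 21.5 ± 3.48 CPM in cKO hearts and 44.1 ± 2.96 CPM in controls (log2 -1.03, adjusted p = 5.24e-05), and Acad11, an enzyme for longer substrates, 66.1 ± 15.2 CPM in cKO hearts and 136 ± 17.3 CPM in controls (log2 -1.03, adjusted p = 0.000355). Acad10, a less studied relative, had 11.1, 16.6, 12.4 and 12.9 CPM in cKO hearts, 4.97 and 4.96 CPM in floxed hearts and 6.72 and 4.91 CPM in Cre hearts. All 4 cKO hearts lay above all 4 control hearts, and Acad10 was 2.46-fold higher (log2 fold change 1.30, SE 0.155, adjusted p = 7.69e-05) from a low level.

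The 3 electron transfer genes were all called, with Etfa and Etfdh lower and Etfb higher. Etfa, the alpha subunit of electron transfer flavoprotein, had 299, 161, 239.9 and 182 CPM in cKO hearts, 506 and 473 CPM in floxed hearts and 456 and 468 CPM in Cre hearts. Etfa was 2.16-fold lower (log2 fold change -1.11, SE 0.175, adjusted p = 0.000531). Etfb, the beta subunit that binds it, had 629, 755, 767 and 829.9 CPM in cKO hearts, 443 and 436 CPM in floxed hearts and 405 and 437 CPM in Cre hearts. Etfb was 1.73-fold higher (log2 fold change 0.79, SE 0.103, adjusted p = 0.000117). Neither gene had a cKO heart within the control range, and the 2 moved in opposite directions. The count ratio of Etfb to Etfa was 2.11, 4.68, 3.2 and 4.55 in the cKO hearts, against 0.876 and 0.921 in the floxed hearts and 0.889 and 0.935 in the Cre hearts. The ratio was thus 3.63 ± 1.22 in cKO hearts and 0.905 ± 0.0274 in control hearts (SD, n = 4 each). It varied far more among the cKO hearts. Etfdh, the ubiquinone oxidoreductase that takes the electrons from the flavoprotein, had 219.6, 145, 219 and 156 CPM in cKO hearts, 488 and 476 CPM in floxed hearts and 447 and 482 CPM in Cre hearts. Etfdh was 2.56-fold lower (log2 fold change -1.35, SE 0.144, adjusted p = 4.46e-05). Etfb has a transcript of 893 bases and Etfa one of 1392, and Etfb was not called in a fit with a combined length and GC offset (log2 0.04, adjusted p = 0.684).

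The trifunctional protein, which does the hydration, oxidation and thiolysis of long chains, is built from Hadha and Hadhb, the pair with the shared start region printed above. Hadha, the alpha subunit, had 745, 534, 747 and 531 CPM in cKO hearts, 1366 and 1240.0 CPM in floxed hearts and 1241 and 1383 CPM in Cre hearts. Hadha was 2.05-fold lower (log2 fold change -1.03, SE 0.137, adjusted p = 0.000131). Hadhb, the beta subunit, had 899, 563, 799 and 557 CPM in cKO hearts, 1488 and 1451 CPM in floxed hearts and 1345 and 1574 CPM in Cre hearts. Hadhb was 2.08-fold lower (log2 fold change -1.06, SE 0.161, adjusted p = 0.000349). For this pair the proportion differed between groups by less than the spread between hearts, with a Hadha to Hadhb count ratio of 0.916 ± 0.0592 in cKO hearts and 0.893 ± 0.0324 in control hearts. Hadh, the dehydrogenase for shorter chains, averaged 279.8 ± 69.9 CPM in cKO hearts and 512 ± 42.2 CPM in controls (log2 -0.87, adjusted p = 0.00113), and Echs1, the short-chain hydratase, 173 ± 31.4 CPM in cKO hearts and 292 ± 8.38 CPM in controls (log2 -0.76, adjusted p = 0.000512). Acaa2, the thiolase that ends the cycle for medium and short chains, averaged 731 ± 47.5 CPM in cKO hearts and 662 ± 21.1 CPM in controls. Every cKO heart lay above every control heart for Acaa2, but the change was small and not called (log2 fold change 0.14, SE 0.0881, adjusted p = 0.193), while Hadha, Hadhb, Hadh and Echs1 were called lower. Of the enzymes for unsaturated acids, Decr1, dienoyl-CoA reductase, had 221, 195, 241 and 209.8 CPM in cKO hearts, 329 and 302 CPM in floxed hearts and 266 and 321 CPM in Cre hearts (log2 fold change -0.49, SE 0.101, adjusted p = 0.00207). Eci2 averaged 91.1 ± 13.8 CPM in cKO hearts and 113 ± 6.48 CPM in controls (log2 -0.31, adjusted p = 0.0389) and lost its call without any 1 of cKO hearts 2 and 4, the floxed hearts and Cre heart 2 (over all 8 such fits, log2 -0.40 to -0.22, adjusted p 0.0119 to 0.0989). Eci1, the other mitochondrial isomerase, averaged 193 ± 21.4 CPM in cKO hearts and 202 ± 17.5 CPM in controls and was not called (log2 -0.06, adjusted p = 0.622), but was called lower with the length and GC offset (log2 -0.49, adjusted p = 0.00543). In peroxisomes, Acaa1a, the thiolase, had 92.6, 113, 104 and 112 CPM in cKO hearts, 71.6 and 66.2 CPM in floxed hearts and 64.9 and 65.1 CPM in Cre hearts. Acaa1a was 1.58-fold higher with no overlap (log2 fold change 0.66, SE 0.09, adjusted p = 0.000161). Ehhadh, the bifunctional peroxisomal enzyme, averaged 8.73 ± 2.19 CPM in cKO hearts and 11.3 ± 2.13 CPM in controls and was not called (log2 -0.36, adjusted p = 0.102), but was called lower without cKO heart 3 (log2 -0.53, adjusted p = 0.0193).

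**Figure D2:**
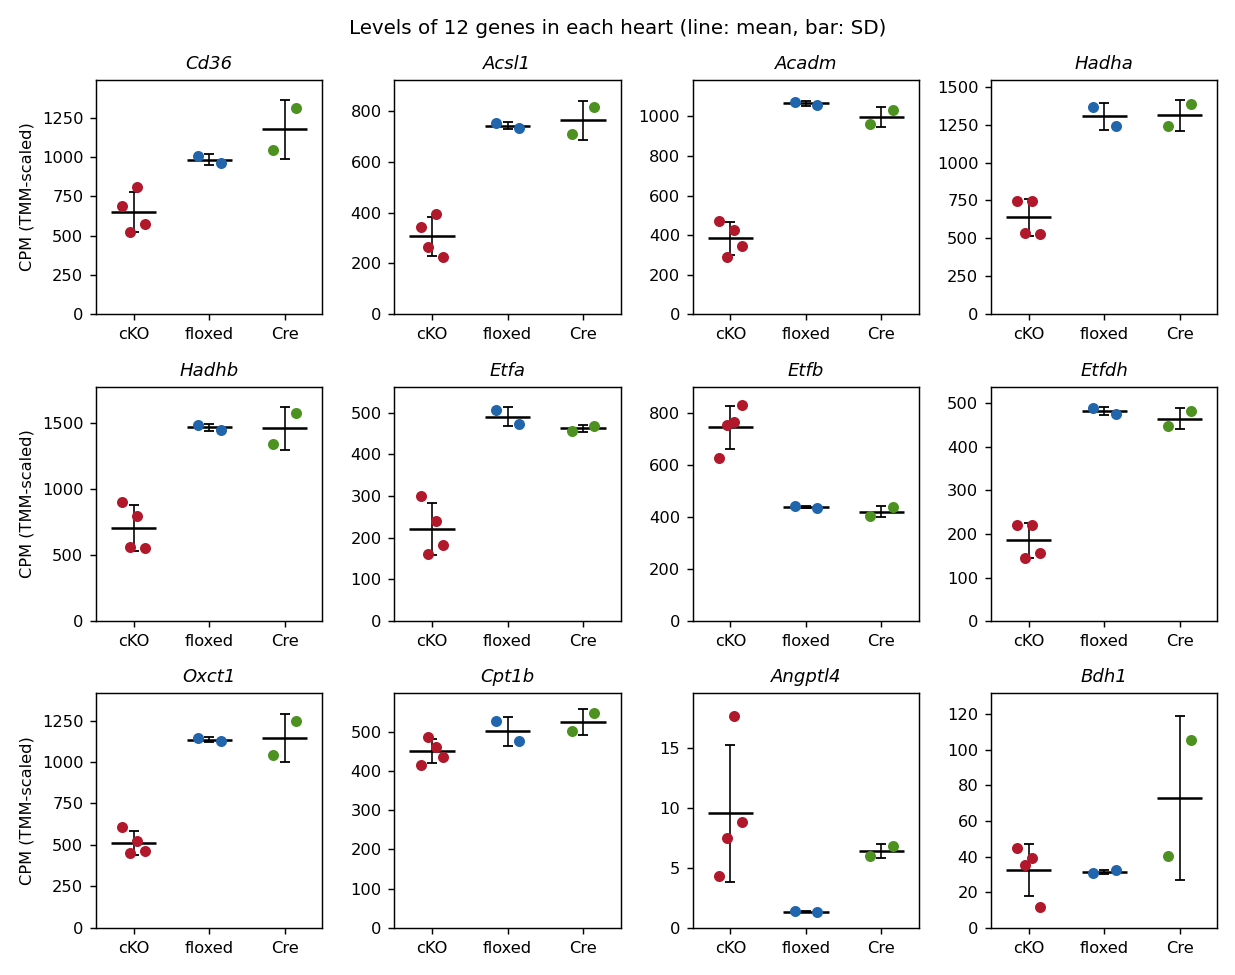
CPM (TMM-scaled) of 12 of the 47 genes in each heart, with cKO hearts left of floxed and Cre hearts; each point is 1 heart, the line is the group mean and the bar is the SD (n = 4, 2 and 2). Cd36, Acsl1, Acadm, Hadha, Hadhb, Etfa, Etfdh and Oxct1 are below the controls in every cKO heart and Etfb is above them, while Cpt1b and Bdh1 overlap and Angptl4 differs between floxed and Cre hearts.

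Of the 3 ketone genes, Oxct1 and Acat1 were called lower and Bdh1 was not called. Oxct1, the transferase that activates acetoacetate in tissues outside the liver, had 606, 451, 526 and 461 CPM in cKO hearts, 1144 and 1127 CPM in floxed hearts and 1044 and 1249 CPM in Cre hearts. It was 2.23-fold lower (log2 fold change -1.16, SE 0.117, adjusted p = 3.52e-05), and in every cKO heart it stood below every control heart. Acat1, the thiolase that splits acetoacetyl-CoA, had 287, 211, 268 and 209 CPM in cKO hearts, 523 and 514 CPM in floxed hearts and 449.7 and 478 CPM in Cre hearts. Acat1 was 2.01-fold lower (log2 fold change -1.01, SE 0.119, adjusted p = 7.18e-05). Bdh1, which turns hydroxybutyrate into acetoacetate, had 44.7, 35.03, 39.3 and 11.7 CPM in cKO hearts, 30.6 and 32.2 CPM in floxed hearts and 40.4 and 105 CPM in Cre hearts. Cre heart 2 held more than any other heart and cKO heart 4 less than any other, and Bdh1 was not called (log2 fold change -0.55, SE 0.494, adjusted p = 0.391) or called in any other setting. Ucp3, an uncoupling protein family member of the inner membrane in muscle, had 26.7, 36.4, 45.9 and 18.3 CPM in cKO hearts, 24.97 and 15.8 CPM in floxed hearts and 25.02 and 56.4 CPM in Cre hearts, with the lowest and the highest heart both among the controls (log2 fold change 0.14, SE 0.379, adjusted p = 0.775). None of the 3 lipid droplet genes was called. Plin2, a droplet coat protein, averaged 42.3 ± 5.27 CPM in cKO hearts and 37.6 ± 6.03 CPM in controls (log2 0.18, adjusted p = 0.215). Plin5, the coat protein of oxidative tissue, averaged 68.8 ± 20.4 CPM in cKO hearts and 73.6 ± 8.04 CPM in controls (log2 -0.10, adjusted p = 0.702). Pnpla2, the triglyceride lipase ATGL, averaged 275 ± 57.4 CPM in cKO hearts and 266 ± 29.9 CPM in controls (log2 0.05, adjusted p = 0.798).

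**Figure D3:**
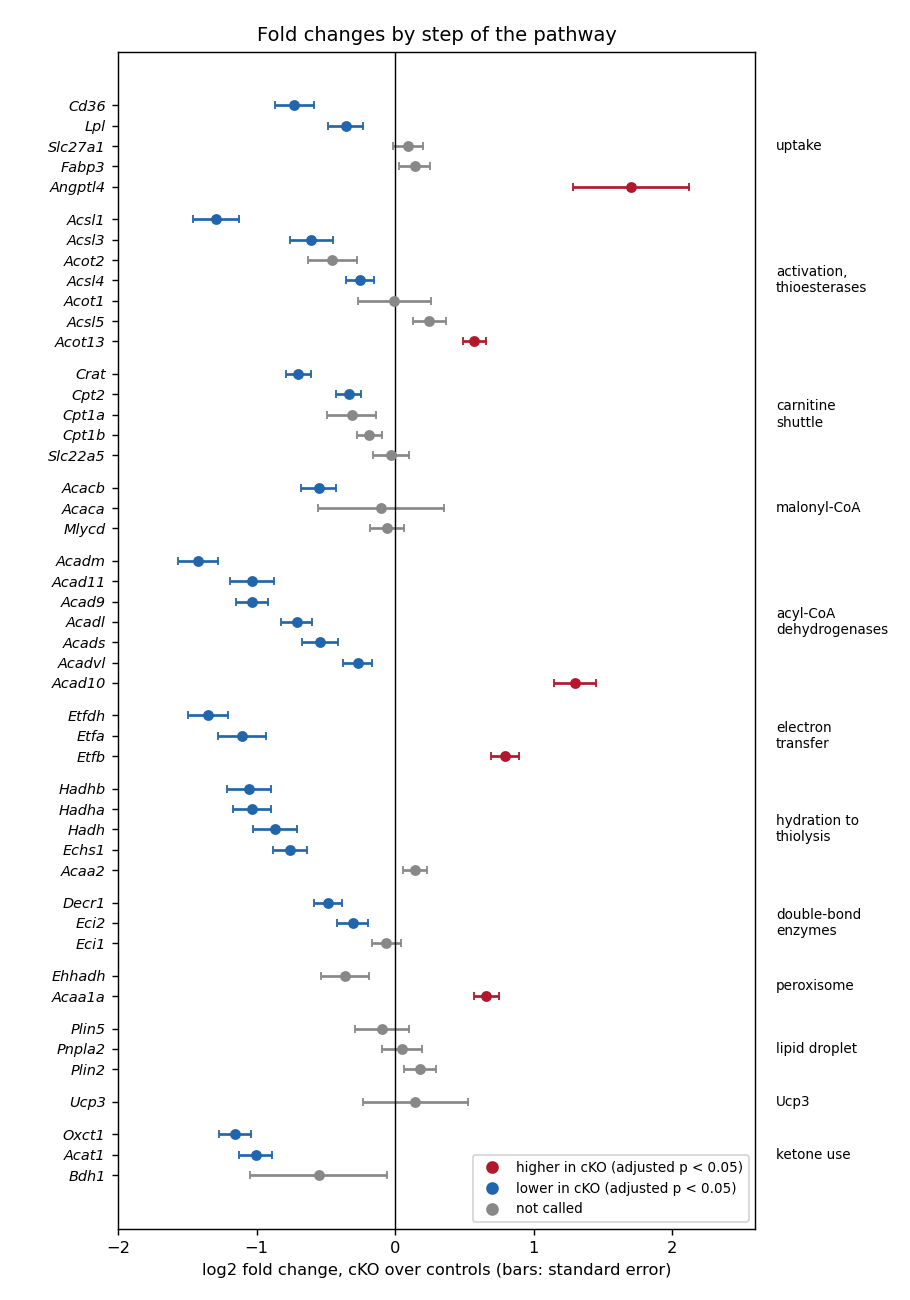
Log2 fold change of each of the 47 genes, cKO over the average of both control groups, with bars of 1 standard error, ordered within each step; blue marks the 24 genes called lower, red the 5 called higher and grey the 18 not called. Falls reach -1.43 (Acadm) and rises 1.71 (Angptl4), and electron transfer holds 2 falls (Etfa and Etfdh) and 1 rise (Etfb, not called with a length and GC offset).

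The 4 cKO hearts did not fall equally. Over the 24 genes called lower, the median log2 distance to the control mean was -0.62, -1.08, -0.66 and -0.86 in cKO hearts 1 to 4. In 21 of the 24 genes cKO hearts 2 and 4 held the 2 lowest values. Those hearts had the highest Etfb to Etfa ratios and, with Acadm at 289 and 346 CPM, the lowest Acadm. Etfa and Acadm are themselves among the 24 genes. Elmsan1 itself did not follow this order, with 15.2, 15.5, 15.3 and 12 CPM in cKO hearts 1 to 4. The labels give no batch, and the 24 genes were chosen here by their fall, so this order is a description of these 4 hearts. Etfa shows the wider spread among cKO hearts (221 ± 61.9 CPM in cKO hearts and 476 ± 21.5 CPM in controls).

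Set per kilobase of transcript, which allows levels of different genes to be compared roughly, the order of the pathway shifted. These levels carry no length and GC offset, and in the fit with it Etfb was not called and Fabp3 was called lower in cKO hearts. Fabp3 was the highest of the 47 genes in both groups, at 3216 CPM per kilobase in cKO hearts and 2920.1 in control hearts, and Lpl came next at 847 and 1086. Acadm ranked 10th in cKO hearts and 4th in control hearts, at 187 and 504 CPM per kilobase. Etfb ranked 3rd in cKO hearts and 5th in control hearts (834 and 482 CPM per kilobase), and Etfa 13th and 9th (158 and 342). Etfb and Etfa, whose products pair in the flavoprotein, were closer in level in control hearts than in cKO hearts. Hadhb ranked 5th in cKO hearts and 3rd in control hearts (344 and 715), and Acaa2 4th and 6th (482 and 437). The lowest levels belonged to Acsl3 in cKO hearts (0.827) and to Angptl4 in control hearts (1.17). Ranks that lie next to each other often differed by less than the spread between hearts, as for Acadl and Acaa2 in control hearts (434 and 437).

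Many of the genes were also called lower against each kind of control alone, in 2 comparisons that share the same 4 cKO hearts. Against the floxed hearts alone 19 genes were called lower and 5 higher (23.1% and 19.8% of all tested genes), with a median log2 fold change of -0.30 over the 47 genes. Against the Cre hearts alone 22 were called lower and 4 higher (22.8% and 19.6% of all tested genes), with a median of -0.42. Acadm fell by 1.47 on the log2 scale against floxed hearts and by 1.38 against Cre hearts, Oxct1 by 1.15 and 1.17, and Hadha by 1.03 and 1.04. Between the Cre and floxed hearts themselves, the test of the difference between these 2 comparisons, none of the 47 genes was called by edgeR (lowest adjusted p 0.986). Of all tested genes 0.00654% were called higher and 0.0916% lower in Cre hearts. At an unadjusted p under 0.05 there was 1 of the 47 genes, and 526 of all tested genes. DESeq2 called 1 of the 47, Angptl4, higher in Cre hearts (log2 2.24, adjusted p = 0.00347), and with 2 hearts in each group these comparisons have little power.

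Fat-cell markers differed between hearts of the same genotype, and so did some of the oxidation genes. The summed level of 8 adipocyte markers was 48.8, 43.3, 247 and 265 CPM in the cKO hearts, 25.4 and 44.6 CPM in the floxed hearts and 89.2 and 108 CPM in the Cre hearts. Of the 8 markers 1 was called higher in cKO hearts and 7 were not called, with log2 fold changes from -1.04 to 4.60. Ucp1, which marks brown fat, had 7.31, 0.692, 74.8 and 79.8 CPM in cKO hearts, 0.214 and 0 CPM in floxed hearts and 20.2 and 27.7 CPM in Cre hearts, so cKO hearts 3 and 4 and both Cre hearts stood apart from the other 4. Acaca had 14.1, 10.9, 34.4 and 37.8 CPM in cKO hearts, 17.5 and 21.8 CPM in floxed hearts and 42.2 and 27.96 CPM in Cre hearts. Angptl4 was highest in cKO heart 3 and higher in both Cre hearts than in both floxed hearts. Angptl4 stood at 7.46 CPM in cKO heart 2, low in these markers, at 5.999 and 6.81 CPM in the Cre hearts, and at 8.80 CPM in cKO heart 4, the highest in them. The part of fat cells in the values of the oxidation genes was not tested. In a fit, chosen after seeing the markers, of only the 4 hearts with the lowest adipocyte markers (cKO hearts 1 and 2 and both floxed hearts, 2 residual degrees of freedom), 23 of the 47 genes were called lower and 5 higher, against 19.6% and 17.7% of the 14492 genes tested there. The falls of Acadm (log2 -1.46), Etfdh (-1.38), Acsl1 (-1.26) and Oxct1 (-1.08) were about as large in these 4 hearts as against the floxed hearts in the fit of all 8 (-1.47, -1.38, -1.27 and -1.15). Those 4 hearts, with the same floxed hearts, are also part of the fit of all 8, so the 2 sets of values are not independent. Etfb (0.68) and Angptl4 (2.15) were also called higher in the fit of 4 hearts. With no Cre heart in it, this fit cannot speak to the comparison with Cre hearts, in which Angptl4 was not called. Acaca turned round, with log2 -0.63 (adjusted p = 0.0305) in these 4 hearts and log2 0.32 (adjusted p = 0.685) against the floxed hearts in the fit of all 8. Acot1, not called in the fit of all 8, was called lower in the 4 (log2 -0.68, adjusted p = 0.0486).

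The calls of several of these genes changed when transcript length and GC content were corrected for together. In the whole table, short transcripts tended to be higher in cKO hearts and long ones lower. Across all 15216 tested genes with a length, Spearman's rho between log2 fold change and length was -0.386, and across the 47 it was -0.226. With GC content rho was 0.313 over all and 0.519 over the 47, and genes are not independent replicates. In each of 5 classes of length the median of the oxidation genes was below that of the tested protein-coding genes, by less in the shortest and longest classes. From 2000 to under 3000 bases the median log2 fold change was -0.34 for 13 oxidation genes and 0.06 for 3122 coding genes, and from 3000 to under 4000 bases it was -0.73 for 11 and -0.06 for 2496. Under 1000 bases the 3 oxidation genes Fabp3, Etfb and Acot13 had a median of 0.57, and the 780 coding genes 0.73. From 1000 to under 2000 bases the medians were -0.20 for 12 oxidation genes and 0.32 for 2847 coding genes, and from 4000 to under 10000 bases -0.34 for 8 and -0.26 for 4193. A fit with an offset that removes each library's smooth dependence of counts on length and GC content called 26 of the 47 lower and 3 higher, against 22.6% and 21.9% of the 15216 genes it could use. Of the 24 genes called lower without the offset 21 were still called lower with it, and of the 5 called higher 2 were. Acadm (log2 -1.37), Etfdh (-1.22), Etfa (-1.18) and Hadhb (-0.97) had falls near those without it. Others called in both fits moved by more than 1.5 times, with Acads (-1.02) and Acadvl (-0.41) further below 0 and Cd36 (-0.46) and Decr1 (-0.25) nearer to it. Falls of at least 2-fold numbered 5 with the offset (Acadm, Etfdh, Etfa, Acsl1 and Acads) and 10 without it, and Oxct1, Acat1, Acad9, Acad11, Hadha and Hadhb were below 2-fold with it. Etfb (log2 0.04, adjusted p = 0.684), Acot13 (log2 0.04, adjusted p = 0.743) and Acaa1a (log2 0.17, adjusted p = 0.0787) were not called with the offset. Fabp3, whose transcript has 823 bases, was called lower with the offset (log2 -0.50, adjusted p = 0.0102), as were Mlycd, Eci1, Acot2 (log2 -0.59, adjusted p = 0.0334) and Pnpla2 (log2 -0.39, adjusted p = 0.0457), none of which was called without it. Lpl (log2 -0.03, adjusted p = 0.823), Acsl4 (log2 0.14, adjusted p = 0.222) and Acsl3 lost their calls. Acad10 (log2 1.27, adjusted p = 0.000145) and Angptl4 (log2 1.85, adjusted p = 0.00833), both over 3000 bases long, were called higher in both fits, and Acsl5 (log2 0.55, adjusted p = 0.00456) was added. A second offset, from the longest transcript of any type, called 25 of the 47 lower and 4 higher (3517 and 3486 of all 15216 genes). With it Acaa1a was still called higher (log2 0.56, adjusted p = 0.000336) and Cpt1b was called lower (log2 -0.30, adjusted p = 0.0167). Pnpla2 (log2 -0.21, adjusted p = 0.249) and Eci2 (log2 -0.17, adjusted p = 0.192) were not called with it. No fit corrected for length alone or GC content alone, so their parts in these changes were not tested.

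**Figure D4:**
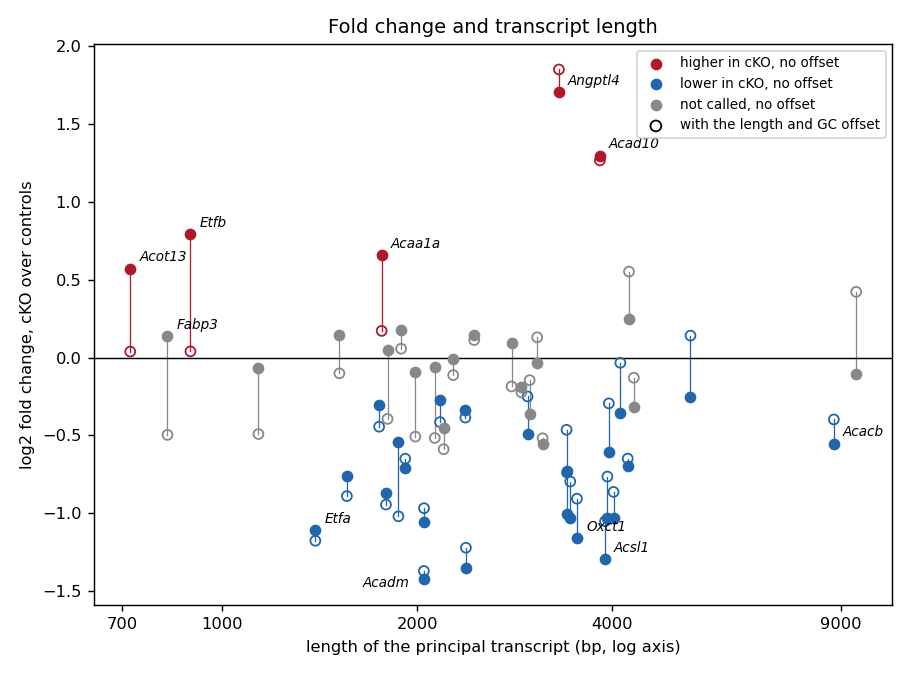
Log2 fold change (cKO over the average of both control groups) of each of the 47 genes against the length of its principal transcript (log axis); filled points are the fit without an offset, open points the fit with the length and GC offset, joined by a line. The short genes Etfb, Acot13 and Fabp3 drop by more than 0.5 while Acadm, Etfa and Acad10 move little.

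A wider list of 73 tested genes of lipid and ketone handling, regulators included, gave 28 called lower and 11 called higher (26.5% and 25.6% of all tested genes were), with a median log2 fold change of -0.14. The 6 falls with the smallest adjusted p were Ppargc1a, Lpin1, Acadsb, Esrrg, Ppara and Prkaa2. Ppara, the nuclear receptor that fatty acids activate, had 6.26, 4.05, 6.46 and 2.74 CPM in cKO hearts, 35.7 and 34.1 CPM in floxed hearts and 28.02 and 34.3 CPM in Cre hearts. Ppara was 6.80-fold lower (log2 fold change -2.76, SE 0.243, adjusted p = 4.19e-05). Ppargc1a, its coactivator PGC-1 alpha, averaged 39.4 ± 5.48 CPM in cKO hearts and 101 ± 4.52 CPM in controls (log2 -1.36, adjusted p = 1.71e-05), Esrrg, an orphan receptor of oxidative muscle, 10.5 ± 2.92 CPM in cKO hearts and 43.3 ± 1.31 CPM in controls (log2 -2.05, adjusted p = 2.3e-05), and Prkaa2, a catalytic subunit of AMP-activated kinase, 36.1 ± 10.6 CPM in cKO hearts and 152 ± 8.004 CPM in controls (log2 -2.08, adjusted p = 4.44e-05). Lpin1, a phosphatidate phosphatase, averaged 79.4 ± 5.93 CPM in cKO hearts and 176 ± 10.96 CPM in controls (log2 -1.15, adjusted p = 1.74e-05), and Acadsb, a dehydrogenase of branched acyl-CoA, 65.1 ± 4.50 CPM in cKO hearts and 137 ± 9.89 CPM in controls (log2 -1.07, adjusted p = 2.13e-05). Slc25a20, the carnitine-acylcarnitine carrier between Cpt1b and Cpt2, averaged 84.8 ± 21.7 CPM in cKO hearts and 147 ± 10.1 CPM in controls and was also called lower (log2 -0.80, adjusted p = 0.00253). The 6 rises with the smallest adjusted p were Fabp5 (log2 1.08, adjusted p = 0.000208), Fabp4 (log2 1.39, adjusted p = 0.000667), Gpihbp1 (log2 1.30, adjusted p = 0.00103), Acot8 (log2 0.59, adjusted p = 0.0011), Acot7 (log2 0.40, adjusted p = 0.00134) and Pparg (log2 0.85, adjusted p = 0.00169). Fabp4 and Gpihbp1 are genes of capillary endothelium, and the summed endothelial markers were higher in every cKO heart than in any control heart. Fabp4 is itself 1 of those 10 markers. Fabp4 is also a gene of fat cells, and it had 601, 831, 1162 and 1058 CPM in cKO hearts, 307 and 287 CPM in floxed hearts and 324 and 499 CPM in Cre hearts, highest in cKO hearts 3 and 4, which also had the highest adipocyte markers.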

How the data were processed

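RNA from 8 whole hearts was sequenced after TRIzol extraction and NEBNext Ultra library preparation, per the labels' protocols. The deposited table holds estimated counts by gene: from 71.95% to 76.34% of a library's non-zero values were whole (tolerance 1e-06) and the others had decimals. They were treated as estimated counts and rounded before testing. Per the submitters' processing notes, STAR 2.5.1b and DESeq2 were used with builds mm10 and GRCm38, with no role stated. The sources used here do not give the counting program, the annotation or the strand setting, so overlapping, antisense and near-identical genes may share reads. Of the 45706 gene identifiers 563 had no symbol in GENCODE M21.

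Genes were filtered with filterByExpr, library sizes scaled by TMM, and the 3 groups fitted together with edgeR 4.0.16 (R 4.3.3; quasi-likelihood test, robust, 5 residual degrees of freedom, Benjamini-Hochberg adjustment over 15289 genes, adjusted p under 0.05). Contrasts set cKO against the mean of floxed and Cre, cKO against each, and Cre against floxed. Levels are mean ± SD of CPM, and standard errors (SE) come from the test statistic. Lengths and GC content are those of the longest APPRIS principal transcript; the offset used mgcv 1.9.3. Alternatives were other scalings and filters, DESeq2 1.42.0, limma 3.58.1 (voom), no robust fit, pooled controls, no mitochondrial genes, a replicate block, the offset and leaving out each heart; 2 more, the offset from the longest transcript of any type and the fit of 4 hearts with the lowest adipocyte markers, were chosen after seeing the data.

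The 47 genes, the wider list (76 of 77 symbols found, 73 tested), the marker lists and the tests were chosen with earlier results of these data known. Any of the 47 could be named; values in every heart are given for 21 preset genes and for the called gene with the largest rise and the largest fall of each step, and also for Acaca and Ucp1, chosen after their values were seen. From the wider list the 6 called rises and 6 called falls with the smallest adjusted p and a mean of at least 1 CPM are named, with Ppara, Ppargc1a and Slc25a20; 1 further gene of that list is not reported here. The fitting procedure was run on simulated counts with few changed genes and no dependence on length or GC content. These data differ in both, so the simulation cannot show how reliable the calls are here. Depth was 17509564 to 25833259 estimated counts in a library, and p-values reflect the spread among these 8 hearts. Figures were drawn with matplotlib 3.10.9.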

Additional observations from a re-analysis of the deposited data

Results flagged for a closer look

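Among the 47 oxidation genes, 1 sample stood far from the others of its group. Slc22a5, the carnitine importer of the plasma membrane, had 27.6 CPM in cKO heart 2, against 19.7 to 20.7 CPM in the other 3 cKO hearts and 19.6 to 26.7 CPM in control hearts. The gap to its nearest neighbour was 0.874 of the whole cKO range, above Dixon's 95% critical value for 4 samples. Chance alone puts about 1 in 20 such groups past that value. Slc22a5 was not called in any setting tried.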

How the results depend on the processing

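Of the 29 called genes 18 were called in each of 22 alternative settings, 17 lower and Acad10 higher; the counts for cKO against floxed hearts also had a setting of 4 hearts, given above. The count of genes called lower was 24, and 19 to 28 over the alternatives that left out no heart (over all genes 4050, and 2625 to 4171). The 28 came from the replicate block with the offset, in which cKO hearts 3 and 4 add nothing to the contrast. Without the block the highest count was 26, with the length and GC offset. Leaving out each heart in turn gave 20 to 25 lower and 5 to 6 higher against both control groups, 14 to 22 lower and 4 to 5 higher against floxed, 16 to 22 lower and 3 to 4 higher against Cre, and 0 between Cre and floxed; in the wider list 25 to 29 lower and 9 to 14 higher, and over all genes 3484 to 4298 lower and 3038 to 3911 higher. Where 1 floxed or Cre heart was left, it was assumed to vary like the other groups. The count called higher was 8 with upper-quartile scaling and 8 with library size alone, which shift the median of all genes to 0.16 and 0.17 (0.04 with TMM); the medians of the 47 genes were then -0.22 and -0.20, which is -0.38 and -0.37 relative to all genes, against -0.38 with TMM. Acaa2, Acsl5 and Plin2 were the added calls. Over all 15289 genes 4873 were called higher with upper-quartile scaling and 4753 with library size alone, against 3909 with TMM. With the length and GC offset 3 of the 47 were called higher against both control groups (3335 of all 15216 genes), 3 against floxed and 2 against Cre.

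Deviations of same-numbered hearts from their group means correlated between -0.108 and 0.133 over 6 pairs. In a control group of 2 hearts these deviations mirror each other. The 6 values are therefore not independent and cannot show whether the replicate numbers pair the hearts. Replicate numbers 3 and 4 occur only in the cKO group. In a fit with the replicate block, cKO hearts 3 and 4 therefore add nothing to the contrasts with controls. With the replicate block 25 genes were called lower. Acaca (log2 -1.08, adjusted p = 0.0016), Acot2 (-0.53, adjusted p = 0.02), Ehhadh (-0.44, adjusted p = 0.043) and Plin5 (-0.40, adjusted p = 0.0487) were added. Acsl3 (-0.51, adjusted p = 0.0817), Acsl4 (-0.20, adjusted p = 0.278) and Lpl (-0.27, adjusted p = 0.145) were lost. With the block, 1 (Angptl4) was called higher in Cre than in floxed hearts, as by DESeq2 (1). With the replicate block and the offset together the counts called higher were 3 against both control groups, 2 against floxed, 1 against Cre and 1 in Cre against floxed; 4 were called higher in the wider list, and 2383 higher and 2625 lower over all genes.

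Log2 fold changes of 16 genes changed sign in at least 1 setting, 4 of them called genes (Lpl, Acsl4, Etfb and Acot13), and the cause was not tested. With upper-quartile scaling Plin5 had 0.019, Slc22a5 0.081, Acaca 0.0074, Eci1 0.049, Acot1 0.10 and Mlycd 0.052. With library size alone Plin5 had 0.042, Slc22a5 0.088, Acaca 0.031, Eci1 0.067, Acot1 0.12 and Mlycd 0.072. With a mean of at least 1 CPM Acot1 had 0.018. With the replicate block Slc22a5 had 0.056 and Pnpla2 -0.21. With the offset Pnpla2 had -0.39, Fabp3 -0.50, Acsl4 0.14, Slc22a5 0.13, Acaca 0.42, Slc27a1 -0.19 and Acaa2 -0.10. With the block as well Lpl had 0.013, Pnpla2 -0.59, Fabp3 -0.45, Acsl4 0.11, Slc22a5 0.22, Slc27a1 -0.13 and Acaa2 -0.11. With the offset from the longest transcript of any type Etfb had -0.0038, Acot13 -0.020, Fabp3 -0.57, Acsl4 0.10, Slc22a5 0.053, Acaca 0.41, Pnpla2 -0.21, Plin2 -0.0065, Slc27a1 -0.092, Acaa2 -0.17 and Acot1 0.096. Over the fits that left out a heart, Slc22a5 ranged from -0.15 to 0.025, Acaca from -0.40 to 0.14, Acot1 from -0.31 to 0.17, Plin5 from -0.30 to 0.053, Mlycd from -0.17 to 0.031, Pnpla2 from -0.073 to 0.15 and Ucp3 from -0.097 to 0.47. Over 47 genes and 22 settings (1034 values), 882 kept direction and side of the threshold. With direction kept, 58 lost a call and 34 gained one. The other 60 changed sign, and some of these also crossed the threshold, such as Fabp3 and Etfb with an offset. Precision is limited by the spread between hearts and by 2 hearts in each control group.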
